A study of Mus musculus with 67 samples.

Results

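The 6 genes described here are those of the mouse receptors for the constant (Fc) part of IgG, of the signalling chain that the activating receptors share, and of the neonatal Fc receptor. They are Fcgr1, Fcgr3, Fcgr4, Fcgr2b, Fcer1g and Fcgrt, picked by symbol from the 24421 genes of each of 3 deposited tables of RNA-seq values, and all 6 were found in every table. The tables hold 67 libraries in 28 groups of mouse monocytes and their bone marrow progenitors. In the 7-week table (25 libraries, C57BL/6 mice, 7 weeks old) 4 groups came from marrow and 3 from blood. MDP (n = 4) are progenitors of both monocytes and dendritic cells, and cMoP (n = 4) give rise to monocytes alone. The marrow also gave 3 libraries of Ly6C+ and 4 of Ly6C- monocytes, and the blood gave 4 of Ly6C+, 3 of Ly6Cint and 3 of Ly6C- monocytes. Ly6C, a surface antigen, separates classical (Ly6C+) from patrolling (Ly6C-) monocytes in mice, with Ly6Cint cells between them.

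The knockout table (16 libraries, n = 2 per group) has blood Ly6C+ and Ly6Cint monocytes of ko mice, set against the same populations and Ly6C- monocytes from wt blood, with all these mice 16 weeks old and of mixed background. The labels write only ko and wt, and the gene, C/EBPb (Cebpb), is taken from the title of the series. Ly6C- monocytes of ko mice are not analysed here. The same table has MDP, cMoP and Ly6C+ monocytes from the marrow of 8-week C57BL/6 mice. The transfer table (26 libraries, n = 2 per group, C57BL/6, 8 weeks) starts from marrow Ly6C+ monocytes sampled before they were given to host animals. It has these cells again, called grafts here, from blood and from spleen after 24, 36 and 48 h, and Ly6C+, Ly6Cint and Ly6C- monocytes of the hosts from both tissues at 24 h. The titles of the host samples name Gr1 where other labels name Ly6C. All cells were sorted by flow cytometry. Marrow was crushed and enriched for CD115, as was the blood of the 7-week and knockout tables, whereas blood of the transfer table was taken over ficoll and spleen after red cell lysis, so preparation and tissue cannot be told apart in that table. Nothing in the labels says that replicates of a group came from separate animals, so p-values measure the spread between these libraries only.

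IgG receptors on monocytes bind antibody-coated particles and immune complexes. The activating receptors Fcgr1 (high affinity), Fcgr3 and Fcgr4 (lower affinity) have no signalling motif of their own that suffices, and need the Fcer1g chain both to reach the surface and to signal: its ITAM is phosphorylated by Src family kinases and then binds Syk, which starts uptake of the particle and inflammatory output. Fcgr2b is the inhibitory receptor. Its ITIM recruits the phosphatase Inpp5d and dampens the same pathway. Fcgr4, which binds IgG2a and IgG2b complexes, is known as a receptor of patrolling Ly6C- monocytes in mice. Fcgrt is the heavy chain of the neonatal Fc receptor FcRn, which pairs with B2m inside the cell and saves IgG and albumin from degradation.

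Fcgr2b, Fcgr3, Fcgr4 and Fcer1g lie on chromosome 1, Fcgr1 on chromosome 3 and Fcgrt on chromosome 7. Because Fcgr4 and Fcgr1 differed most, and in opposite directions, between Ly6C- and Ly6C+ monocytes of the blood in the 7-week table, and Fcgr2b is their inhibitory counterpart, the promoters of these 3 genes are printed below, 5′ to 3′ on the strand of the gene, each with 250 bases before and 50 after the annotated start (RefSeq, GRCm38.p6). Capitals mark matches, on either strand, to 4 short motifs of monocyte factors: TTNCNNAA for C/EBP, GAGGAA for PU.1, TTCNNNGAA for the interferon gamma element GAS, and GAAA, any 2 bases and GAAA again for the interferon element ISRE.
Fcgr4, chr1:171018676-171018975, plus strand: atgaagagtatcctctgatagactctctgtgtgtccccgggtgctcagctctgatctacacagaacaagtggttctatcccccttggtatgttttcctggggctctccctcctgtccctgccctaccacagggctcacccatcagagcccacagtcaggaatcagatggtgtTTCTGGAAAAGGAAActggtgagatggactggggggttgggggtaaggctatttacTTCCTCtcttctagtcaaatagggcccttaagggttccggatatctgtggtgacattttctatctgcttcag
Fcgr1, chr3:96293920-96294219, minus strand: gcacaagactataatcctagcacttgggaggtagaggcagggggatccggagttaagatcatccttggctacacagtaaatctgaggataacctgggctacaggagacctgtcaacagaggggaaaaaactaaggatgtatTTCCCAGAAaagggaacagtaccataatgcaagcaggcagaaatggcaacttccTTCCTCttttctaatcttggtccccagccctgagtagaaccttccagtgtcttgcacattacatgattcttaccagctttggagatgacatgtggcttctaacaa
Fcgr2b, chr1:170976022-170976321, minus strand: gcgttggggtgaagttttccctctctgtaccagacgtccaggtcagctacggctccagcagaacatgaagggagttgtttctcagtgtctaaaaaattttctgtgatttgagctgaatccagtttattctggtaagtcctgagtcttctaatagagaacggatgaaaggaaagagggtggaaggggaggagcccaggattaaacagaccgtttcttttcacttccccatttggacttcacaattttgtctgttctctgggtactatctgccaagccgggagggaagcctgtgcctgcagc
The Fcgr4 window holds a C/EBP match that begins at base -78 from the start and overlaps an ISRE match at -73, and a PU.1 match at -22. The Fcgr1 window holds a GAS match at -109 and a PU.1 match at -55, and the Fcgr2b window holds none of the 4 motifs. Of the other windows, not printed, Fcgr3 has C/EBP matches at -146 and -28 and a PU.1 match at -6, Fcgrt has a C/EBP match at -239, and Fcer1g has no match. Such matches are common: of 27025 promoters of the same length, 40.7% hold the C/EBP letters, 28.3% the PU.1, 8.47% the GAS and 3.49% the ISRE letters.

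Values of the 7-week and knockout tables are given as reads per 1000000 of an assumed library total (RPM), and those of the transfer table without a unit, scaled to a sum of 1000000 over the listed genes. The recovered reads on listed genes came to 577690 to 3643327 per library in the 7-week table and 942751 to 5478761 in the knockout table, and 1 read was worth 0.193 to 1.11 and 0.146 to 0.833 RPM. Depth is unknown for the transfer table. Monocyte markers (8 genes) were above 0 in every group of the 7-week and knockout tables and summed to 718 to 828 RPM in 7-week MDP and to at least 3092 RPM in every blood group, and progenitor markers (8 genes) summed to 1379 to 1619 RPM in 7-week MDP and 496 to 619.7 RPM in 7-week cMoP. A gene was called where limma's adjusted p (Benjamini-Hochberg, over all genes tested in the table) was under 0.05, on log2 of the value plus 1, with all groups of a table in 1 fit. Shares of all genes called use this same rule. The share of all genes at an unadjusted p under 0.05 is not given. Counts of the 6 genes at an unadjusted p therefore have no share to be set against. All 6 genes passed the filter on low values in all tables. Fcgr2b and Fcgr3 share 166 of their 50-base stretches, 4.75% of those of Fcgr2b and 12.8% of those of Fcgr3, so reads from these may have been divided between them. No other pair shared any.

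Fcgr4 was lowest in MDP and highest in the Ly6C- monocytes of the 7-week table. It had 1.18, 0.774, 1.43 and 1.35 RPM in MDP libraries, which is 4 to 6 reads each, and 4.23, 2.61, 6.67 and 3.57 RPM in cMoP libraries. Marrow Ly6C+ monocytes had 8.49, 12.2 and 3.62 RPM, and blood Ly6C+ monocytes had 30.4, 31.5, 46.7 and 42.5 RPM. Both progenitors and marrow Ly6C+ cells were thus close to the detection limit, and cMoP and marrow Ly6C+ libraries overlapped. Blood Ly6Cint monocytes had 181, 149 and 199 RPM and blood Ly6C- monocytes 474, 512 and 745 RPM. Marrow Ly6C- monocytes had 565, 482, 463 and 485 RPM, and their libraries overlapped those of blood Ly6C- cells, whereas blood Ly6C+, blood Ly6Cint and all Ly6C- libraries were in separate ranges.

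Fcgr1, the high-affinity receptor, was at a few reads in both progenitors and highest in blood Ly6C+ monocytes. MDP libraries had 2.95, 0.774, 3.14 and 2.97 RPM, and cMoP libraries 2.01, 2.90, 4.24 and 4.67 RPM. Marrow Ly6C+ monocytes had 96.5, 92.4 and 111 RPM, and blood Ly6C+ monocytes 221, 259, 232 and 127 RPM. Blood Ly6C+ replicate 4 therefore stood among the Ly6Cint libraries, which had 128, 121 and 104 RPM. Blood Ly6C- monocytes had 73.0, 63.6 and 52.1 RPM and marrow Ly6C- monocytes 86.1, 72.5, 77.9 and 72.3 RPM, below every Ly6C+ and Ly6Cint library.

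Fcgr3, the low-affinity activating receptor, was low in MDP alone. It had 23.4, 19.0, 16.8 and 17.8 RPM there, against 403, 375, 390.3 and 388 RPM in cMoP. Later groups kept to the cMoP level except blood Ly6C+ monocytes, which were above all others at 603, 632, 595 and 682 RPM. The group means were 384 ± 34.6 RPM in marrow Ly6C+ (SD, n = 3), 377 ± 74.0 in blood Ly6Cint (n = 3), 396 ± 53.5 in blood Ly6C- (n = 3) and 365 ± 67.6 in marrow Ly6C- monocytes (n = 4), and the libraries of these 4 groups overlapped.

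Fcgr2b, the inhibitory receptor, had a narrower range of group means, 21.4 to 115 RPM, than the activating receptors. MDP libraries had 29.0, 21.7, 14.0 and 20.8 RPM and cMoP libraries 54.4, 51.6, 48.5 and 44.5 RPM. Marrow Ly6C+ monocytes had 61.0, 66.3 and 63.8 RPM, and blood Ly6C+ monocytes 77.4, 119.9, 169.9 and 94.5 RPM. Among the mature groups blood Ly6C+ had the highest mean, 115 ± 40.3 RPM, but its libraries overlapped those of both Ly6C- groups. Blood Ly6Cint monocytes had 62.6, 65.8 and 59.2 RPM, blood Ly6C- monocytes 55.0, 114 and 133 RPM, and marrow Ly6C- monocytes 124, 101, 79.1 and 117 RPM.

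Fcer1g, the shared signalling chain, was present at more than 100 RPM in every library. It had 171, 127, 106 and 121 RPM in MDP and 269, 238, 209 and 253 RPM in cMoP. Marrow Ly6C+ monocytes had 623, 673 and 654 RPM. The 4 remaining groups lay above these and overlapped, except that every blood Ly6C- library was above every blood Ly6Cint library. Blood Ly6C+ monocytes had 931, 1036, 1453 and 2417 RPM, blood Ly6Cint monocytes 1301, 1135 and 1489.5 RPM, blood Ly6C- monocytes 1516, 1748 and 2227 RPM, and marrow Ly6C- monocytes 1651, 1356, 1301 and 2197 RPM. Blood Ly6C+ replicate 4, low for Fcgr1, was the highest of all 25 libraries for Fcer1g.

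Fcgrt had its own course, with the highest values in the marrow and not in the blood. It was at 9.26, 6.58, 6.85 and 5.95 RPM in MDP and 7.85, 10.4, 8.79 and 4.39 RPM in cMoP. Marrow Ly6C+ monocytes had 47.1, 48.6 and 41.3 RPM, blood Ly6C+ monocytes 47.6, 59.9, 79.2 and 63.2 RPM, and blood Ly6Cint monocytes 60.9, 93.1 and 66.8 RPM. Neighbours among these 3 groups overlapped. Blood Ly6C- monocytes had 127, 168 and 181 RPM and marrow Ly6C- monocytes 234, 282, 197 and 271 RPM, without overlap.

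**Figure D1:**
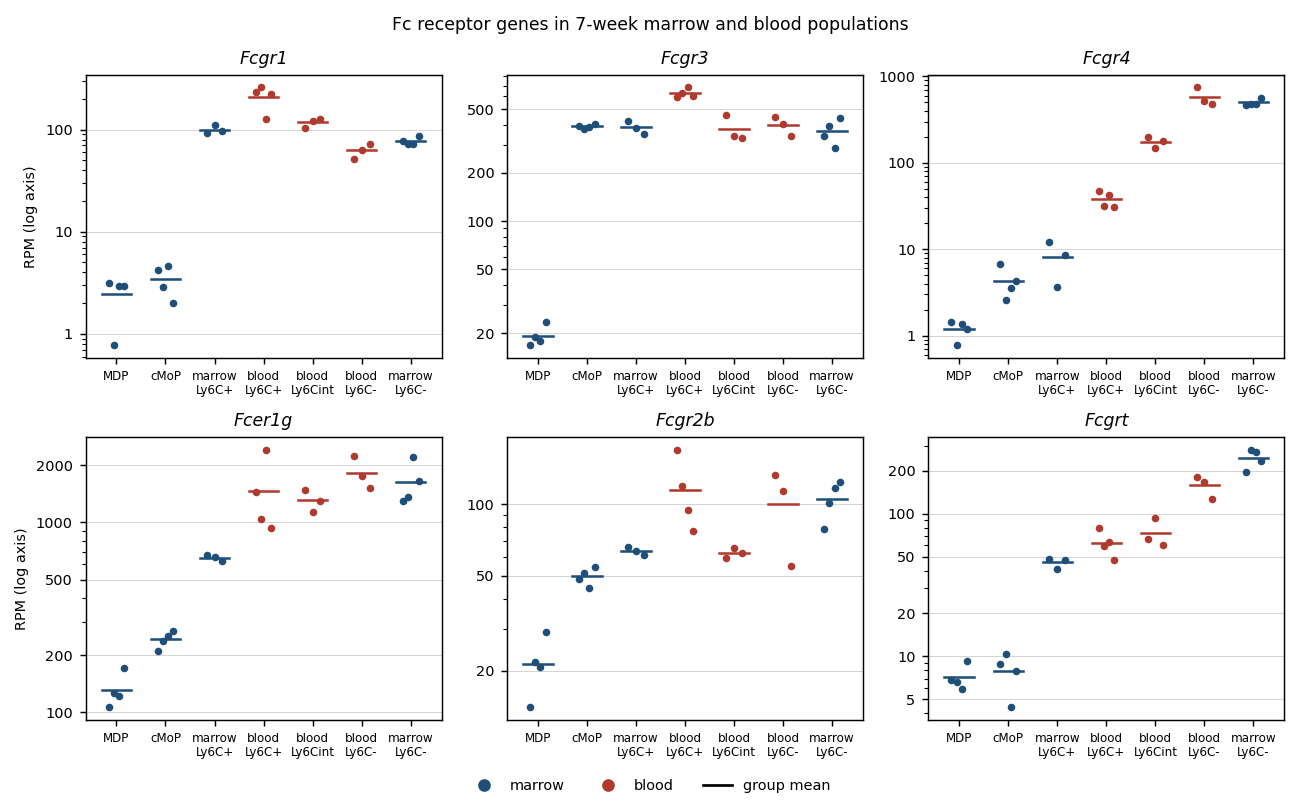
Level of each gene in the 25 libraries of the 7-week table, in RPM on a log axis, with 1 point per library, marrow groups in blue, blood groups in red and a bar at each group mean. Fcgr4 has a mean of 1.18 RPM in MDP and 577 RPM in blood Ly6C- monocytes, while Fcgr1 has its highest mean, 209.7 RPM, in blood Ly6C+ monocytes.

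From MDP to cMoP, 4 of the 6 genes rose and none fell, where 9.25% of all genes tested were called, 5.20% as higher. The median of the 6 log2 ratios was 1.06 and that of all genes -0.01. Fcgr3 rose 20.2-fold, by 4.28 ± 0.14 on the log2 scale (SE; adjusted p = 5.95e-19). Because RNA of many sorted cells was pooled, more cells with Fcgr3 RNA and more RNA per cell cannot be told apart, here and in every later comparison. Fcgr2b rose 2.33-fold (1.22 ± 0.24, adjusted p = 0.000545) and Fcer1g 1.85-fold (0.90 ± 0.21, adjusted p = 0.00468). Fcgr4 also passed, with a log2 ratio of 1.23 ± 0.25 (adjusted p = 0.00107), on counts of 9 to 22 reads per cMoP library. Fcgr1 had a log2 ratio of 0.40 with a 95% interval of -0.11 to 0.91, and Fcgrt one of 0.08 with an interval of -0.35 to 0.52.

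Markers of mast cells and basophils, which use Fcer1g too, summed to 71.3 to 92.6 RPM in cMoP libraries and 27.6 to 34.4 RPM in MDP libraries. Of the 3 tested of 8, 1 was higher and 1 lower, Fcer1a and Cd200r3 were at 0 in both groups, and Prss34 was at 0 in cMoP. NK cell markers, another cell with Fcgr3, summed to 183 to 271 RPM in cMoP and 51.1 to 65.6 RPM in MDP, led by Nkg7, with Ncr1, Klra8, Prf1 and Eomes at 0 in both groups and 1 of 3 tested genes higher. Their part in the result was not tested.

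The 8-week duplicates covered the same step in other libraries. Fcgr2b and Fcgr4, called at 7 weeks, were not called here by limma. Fcgr2b had 53.1 and 43.8 RPM in cMoP against 24.8 and 21.1 RPM in MDP. Fcgr4 had 8.74 and 6.13 RPM in cMoP against 11.2 and 3.13 RPM in MDP, so its libraries overlapped. Fcgrt was not called either. Fcgr3 had 307 and 329 RPM in cMoP against 37.2 and 45.0 RPM in MDP, 7.75-fold higher (2.93 ± 0.20, adjusted p = 1.33e-06), and 2 of the 6 genes were called, both higher, with 4.85% of all genes called and 1.83% higher. The second was Fcer1g, at 325 and 464 RPM against 176 and 237 RPM (0.93 ± 0.25, adjusted p = 0.0449). That call was lost without MDP replicate 1, MDP replicate 2 or cMoP replicate 1, with log2 ratios of 0.67 to 1.14 and an adjusted p up to 0.369. Fcgr1, at 8.12 and 10.1 against 2.48 and 7.43 RPM, was not called (0.89 ± 0.30, adjusted p = 0.119), but was called without MDP replicate 2 (1.53, adjusted p = 0.00451). Neutrophil markers (11 genes) summed to 3112 to 3802 RPM in these cMoP and 3452 to 4289 RPM in these MDP libraries, against 47.5 to 79.9 and 69.5 to 116 RPM in the 7-week cMoP and MDP. Only Stfa2l1 was at 0 in both 8-week groups. Neutrophils carry Fcer1g, Fcgr3 and Fcgr4 as well, and the part of these cells in the 8-week values was not tested.

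From cMoP to marrow Ly6C+ monocytes, Fcgr1 was the gene that changed most of the 6. It averaged 99.9 ± 9.71 RPM in Ly6C+ cells (SD, n = 3) and 3.46 ± 1.22 RPM in cMoP (n = 4), a 28.9-fold rise (4.54 ± 0.27, adjusted p = 5.01e-14). Fcgrt rose 5.81-fold (2.45 ± 0.23, adjusted p = 1.07e-09) and Fcer1g 2.69-fold (1.43 ± 0.23, adjusted p = 1.4e-05). In all, 4 of the 6 were called, all higher, in a comparison where 37.7% of all genes were called and 15.3% were higher. The median log2 ratio was 1.07 for the 6 genes and -0.17 for all genes. Fcgr4 was the fourth, at 0.72 ± 0.27 (adjusted p = 0.0398), with overlapping libraries. Its call was lost without marrow Ly6C+ replicate 1 or 3 or cMoP replicate 1, 2 or 4 (log2 ratios 0.39 to 0.73, adjusted p up to 0.332). Fcgr3 differed by -0.02, with a 95% interval of -0.34 to 0.30, and Fcgr2b by 0.35, with an interval of -0.17 to 0.88. Neutrophil markers summed to 351 to 498 RPM in marrow Ly6C+ and 47.5 to 79.9 RPM in cMoP libraries (3 of 10 tested genes higher, 1 lower; Stfa2l1 at 0 in Ly6C+), and tissue macrophage markers to 157 to 262 and 36.6 to 90.6 RPM (2 of 8 higher, 1 lower; Timd4 at 0 in both). Their part in the values was not tested.

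In the 8-week duplicates of this step 5 of the 6 genes were higher in Ly6C+ cells, with 36.8% of all genes called and 16.3% higher. Fcgr1 had 207 and 185 RPM in Ly6C+ monocytes against 8.12 and 10.1 RPM in cMoP, 21.6-fold higher (4.29 ± 0.30, adjusted p = 1.11e-07). Fcgr3 had 591 and 573 RPM against 307 and 329 RPM (0.87 ± 0.20, adjusted p = 0.00353), with a neutrophil marker sum of 456 to 476 RPM in Ly6C+ cells. The 8-week and 7-week ratios of Fcgr3 were not tested against each other. Fcer1g rose by 1.53 ± 0.25 and Fcgrt by 1.49 ± 0.30 on the log2 scale (adjusted p = 0.000253 and 0.00151). The call of Fcgr2b (1.07 ± 0.29, adjusted p = 0.00878) was lost without cMoP replicate 1 or Ly6C+ replicate 1 (0.78 to 0.94, adjusted p of at least 0.0642).

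Blood Ly6C+ monocytes were higher than marrow Ly6C+ monocytes in 5 of the 6 genes, and lower in none, with 26.02% of all genes called and 7.32% higher. The median log2 ratio of the 6 was 0.90 and that of all genes -0.19. Fcgr4 averaged 37.8 ± 8.09 RPM in blood (n = 4) and 8.09 ± 4.28 RPM in marrow (n = 3), 4.67-fold higher (2.19 ± 0.27, adjusted p = 3.89e-07). Fcer1g was 2.25-fold (1.06 ± 0.23, adjusted p = 0.000912), Fcgr1 2.10-fold (1.02 ± 0.27, adjusted p = 0.00545) and Fcgr3 1.64-fold higher in blood (0.71 ± 0.16, adjusted p = 0.000999). The fifth call, of Fcgr2b (0.79 ± 0.26, adjusted p = 0.0235), was lost without blood replicate 3 or any of the marrow Ly6C+ replicates 1, 3 and 4 (0.58 to 0.82, adjusted p up to 0.0965). Fcgrt was not called (0.42, 95% interval -0.05 to 0.90).

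Within blood at 7 weeks the 2 steps from Ly6C+ over Ly6Cint to Ly6C- moved Fcgr4 one way and Fcgr1 the other. Fcgr4 was 4.67-fold higher in Ly6Cint than in Ly6C+ cells (2.21 ± 0.27, adjusted p = 1.33e-06) and 3.27-fold higher in Ly6C- than in Ly6Cint cells (1.69 ± 0.29, adjusted p = 0.000737). Fcgr3 fell in the first step, at 331, 338 and 462 RPM in Ly6Cint against 603, 632, 595 and 682 RPM in Ly6C+ libraries (-0.75 ± 0.16, adjusted p = 0.000860), and differed by 0.08 in the second, with a 95% interval of -0.26 to 0.42. Fcgrt rose in the second step, 2.16-fold (1.11 ± 0.25, adjusted p = 0.00703), a call lost without Ly6C- replicate 3 (1.01, adjusted p = 0.0518). In the first step 4 of the 6 genes were called, 1 higher and 3 lower, with 27.2% of all genes called (7.95% higher, 19.2% lower). In the second 3 were called, 2 higher and 1 lower, with 8.87% called (7.25% higher, 1.62% lower). Medians of all genes were -0.21 and 0.20.

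The falls of Fcgr1 in these single steps were near the threshold. Ly6Cint against Ly6C+ gave -0.78 ± 0.27 (adjusted p = 0.0305), lost without any 1 of the Ly6Cint replicates 1, 2 and 3 or the Ly6C+ replicates 1, 2 and 3 (-0.85 to -0.67, adjusted p up to 0.103). This call was also lost with a pseudocount of 0.5, quantile scaling, array weights, the compared libraries alone and edgeR. Ly6C- against Ly6Cint gave -0.90 ± 0.29 (adjusted p = 0.0467), lost without any 1 of the Ly6Cint replicates or Ly6C- replicate 2 or 3 (-0.99 to -0.77, adjusted p up to 0.206). It was lost as well with a pseudocount of 0.5, no filter, array weights and a replicate block. The call for the fall of Fcgr2b from Ly6C+ to Ly6Cint (-0.81 ± 0.26, adjusted p = 0.0196) was lost without Ly6Cint replicate 3 or Ly6C+ replicate 3 (-0.78 to -0.61, adjusted p up to 0.0880). Quantile scaling, array weights, the compared libraries alone, edgeR and DESeq2 did not call it either. Fcgr2b was not called between Ly6C- and Ly6Cint (0.59 ± 0.27, adjusted p = 0.176), but was called without Ly6C- replicate 1 (0.97, adjusted p = 0.0128). Both steps share the Ly6Cint libraries.

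Across the whole span in blood, Ly6C- monocytes had 15.3-fold more Fcgr4 RNA than Ly6C+ monocytes (3.89 ± 0.27, adjusted p = 1.26e-11) and 2.54-fold more Fcgrt RNA (1.34 ± 0.23, adjusted p = 7.47e-05). Fcgr1 was 3.33-fold lower in Ly6C- cells (-1.69 ± 0.27, adjusted p = 2.49e-05) and Fcgr3 1.59-fold lower (-0.67 ± 0.16, adjusted p = 0.00228). The call was made for 4 of the 6 genes, with 20.3% of all genes called, 9.86% higher and 10.5% lower. Fcgr2b was not called (-0.22, 95% interval -0.75 to 0.30). Fcer1g was not called either (0.41 ± 0.23, adjusted p = 0.218), but was called as higher without Ly6C+ replicate 4, its highest library (0.69, adjusted p = 0.0135). Dendritic cell markers (8 genes, led by H2-Aa) summed to 2494 to 4768 RPM in Ly6C- and 245 to 316 RPM in Ly6C+ libraries, with 2 of 6 tested genes higher and Xcr1 at 0 in both groups, and tissue macrophage markers (10 genes) summed to 546 to 814 and 219.6 to 556 RPM, with 3 of 8 higher and 1 lower. Ly6C- monocytes express some genes of both lists themselves, and the part of other cells in the result was not tested. Neutrophil markers, of a cell that carries Fcgr4, summed to 13.3 to 16.7 RPM in the Ly6C- libraries and to 62.5 to 169 RPM in the Ly6C+ libraries. The part of neutrophils was not tested either.

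In marrow the same contrast was larger for Fcgr4. Ly6C- monocytes averaged 499 ± 45.4 RPM (n = 4) and Ly6C+ monocytes 8.09 ± 4.28 RPM (n = 3), a 61.6-fold difference (5.90 ± 0.27, adjusted p = 7.47e-16). Fcgrt was 5.39-fold higher in Ly6C- cells (2.40 ± 0.23, adjusted p = 1.54e-09) and Fcer1g 2.50-fold (1.29 ± 0.23, adjusted p = 4.61e-05). Of the 6 genes 4 were higher and none lower, where 40.1% of all genes were called, 11.04% higher, and the medians were 0.99 for the 6 genes and -0.28 for all. Fcgr2b was the fourth (0.70 ± 0.26, adjusted p = 0.0310), lost without Ly6C- replicate 1 or 4 or any Ly6C+ replicate (0.61 to 0.73, adjusted p up to 0.0826). Fcgr1 was not called (-0.37, 95% interval -0.92 to 0.18), nor was Fcgr3 (-0.09, interval -0.41 to 0.23). Tissue macrophage markers summed to 681 to 953 RPM in marrow Ly6C- and 157 to 262 RPM in marrow Ly6C+ libraries, with 6 of 8 tested genes higher. None was at 0 in Ly6C- cells, and Mertk, Timd4 and Cd5l were at 0 in Ly6C+ cells. Dendritic cell markers summed to 2034 to 3756 and 81.1 to 109 RPM, with 2 of 6 higher and Xcr1 at 0 in both groups. Neutrophil markers summed to 26.9 to 659 and 351 to 498 RPM, with 2 of 10 higher, 3 lower and Stfa2l1 at 0 in both. Their part was not tested.

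The difference between marrow and blood was tested as an interaction. It was called for 3 of the 6 genes, with 17.8% of all genes called and 3.53% in the same direction, and a median of -0.28 over all genes. The rise in Ly6C- over Ly6C+ cells was larger in marrow than in blood by 2.01 ± 0.39 on the log2 scale for Fcgr4 (adjusted p = 0.000476) and by 1.06 ± 0.33 for Fcgrt (adjusted p = 0.0237). For Fcgr1 the value was 1.32 ± 0.38 (adjusted p = 0.0152), because the log2 ratio was less negative in marrow (-0.37) than in blood (-1.69). The Fcgrt call was lost without marrow Ly6C+ replicate 4 or blood Ly6C- replicate 1 (0.90 to 0.99, adjusted p up to 0.0643). The signed marrow minus blood value was also positive for the other 3 genes, at 0.92 ± 0.36 for Fcgr2b, 0.58 ± 0.22 for Fcgr3 and 0.88 ± 0.33 for Fcer1g (adjusted p = 0.0795, 0.0659 and 0.0616), where Fcgr3 had -0.09 in marrow and -0.67 in blood. Each of these was called when certain single libraries were left out: Fcgr2b without blood Ly6C- replicate 3 or blood Ly6C+ replicate 1 (1.09 to 1.17), Fcgr3 without marrow Ly6C- replicate 4 (0.70), and Fcer1g without marrow Ly6C- replicate 3, blood Ly6C- replicate 3 or blood Ly6C+ replicate 1 or 2 (0.97 to 1.06). The Ly6C- groups themselves, blood against marrow, gave no call among the 6 genes with limma (2.54% of all genes called). An unadjusted p under 0.05 was reached by 1 of the 6, and edgeR and DESeq2 each called 1 (245 of 11373 and 354 of 11371 genes over all). That gene was Fcgrt, at 0.645 of the marrow level in blood (-0.63 ± 0.23, adjusted p = 0.152).

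The Ly6C- against Ly6C+ contrast could be set out in 5 settings, which use separate libraries. Fcgr4 was called in all 5. In wt blood of the knockout table it had 915 and 819.7 RPM in Ly6C- cells against 65.1 and 40.8 RPM in Ly6C+ cells, 16.4-fold higher (4.04 ± 0.39, adjusted p = 8.35e-06). In host blood of the transfer table it was 18.8-fold (4.22 ± 0.33, adjusted p = 3.14e-08) and in host spleen 24.7-fold higher in Ly6C- cells (4.54 ± 0.33, adjusted p = 2.76e-08). Fcgr1 was called as lower in Ly6C- cells in 4 of the settings, all but marrow. It had 42.8 and 46.7 RPM in wt Ly6C- cells against 116 and 113 RPM in wt Ly6C+ cells (-1.34 ± 0.30, adjusted p = 0.00898), and gave -1.93 ± 0.51 in host blood and -1.98 ± 0.51 in host spleen (adjusted p = 0.0357 and 0.0366). The wt call was lost without Ly6C+ replicate 1 or 2 or Ly6C- replicate 1 (-1.36 to -1.27, adjusted p up to 0.0762). The host calls were lost without any 1 of their 4 libraries (replicates 1 and 2 of Ly6C- and of Ly6C+), at -2.26 to -1.61 in blood (adjusted p up to 0.370) and -2.07 to -1.89 in spleen (adjusted p up to 0.261).

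Fcgrt followed Fcgr4 in 3 settings and was not called in the hosts. It had 399 and 285 RPM in wt Ly6C- cells against 59.0 and 58.6 RPM in wt Ly6C+ cells (2.50 ± 0.30, adjusted p = 6.49e-05). In host blood the values were 99.0 and 80.2 against 81.5 and 78.5 (0.15, 95% interval -0.61 to 0.92), and in host spleen 98.6 and 96.0 against 50.4 and 36.8 (1.16 ± 0.37, adjusted p = 0.122). Whether tables differ in this was not tested, since they were scaled separately. Fcgr3 fell in host spleen, with 357 and 419 in Ly6C- against 877 and 686 in Ly6C+ libraries (0.497 of the Ly6C+ level, SE 0.19 on the log2 scale, adjusted p = 0.00287), a call lost without Ly6C- replicate 1 or Ly6C+ replicate 1 (-0.88 to -0.82, adjusted p up to 0.118). Fcgr2b was not called in wt blood (-0.80 ± 0.29, adjusted p = 0.0970) or host spleen (-0.79 ± 0.25, adjusted p = 0.134), but each was called when Ly6C- replicate 2 was left out (-1.19, adjusted p = 0.0375, and -1.18, adjusted p = 0.0376). The calls numbered 3 of 6 in wt blood, 2 higher and 1 lower (10.5% of all genes called, 4.84% higher and 5.68% lower). They numbered 2 in host blood, 1 in each direction (3.66%, 1.69% and 1.98%), and 3 in host spleen, 1 higher and 2 lower (2.77%, 1.59% and 1.18%). In host spleen B cell markers summed to 297 to 405 in Ly6C- and 92.5 to 99.4 in Ly6C+ libraries (0 of 9 called by limma, Pax5 at 0 in both), and dendritic cell markers to 6046 to 6614 and 850.3 to 1361 (1 of 8 higher, Zbtb46 at 0 in both). In host blood the same sums were 108 to 118 and 63.6 to 91.6 for B cell markers and 476 to 1062 and 970.4 to 1825 for dendritic cell markers. Their part was not tested.

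**Figure D2:**
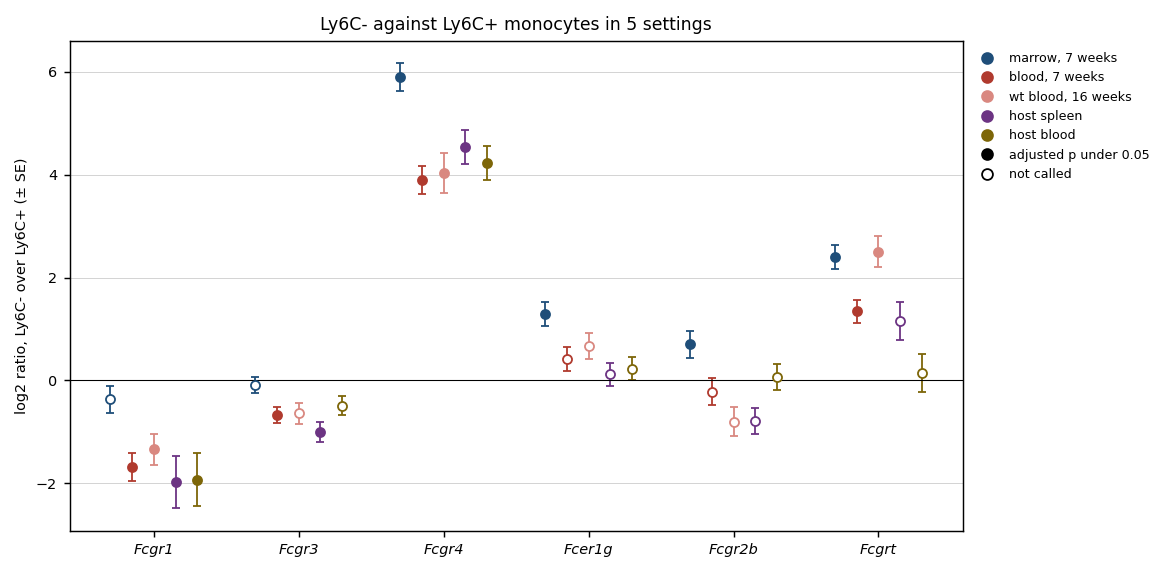
Log2 ratio of Ly6C- over Ly6C+ monocytes for each gene in 5 settings, with bars of 1 SE and filled points where the adjusted p was under 0.05. Fcgr4 lies between 3.89 and 5.90 in every setting, and Fcgr1 between -1.98 and -0.37.

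The single steps in wt blood and in the hosts showed the same gene at the front. Fcgr4 was higher in Ly6Cint than in Ly6C+ cells in wt blood (5.47-fold, 2.43 ± 0.39, adjusted p = 0.00188), host blood (6.65-fold, 2.68 ± 0.33, adjusted p = 9.37e-05) and host spleen (7.08-fold, 2.78 ± 0.33, adjusted p = 7.25e-05). The calls were 3 of 6 in wt blood, 2 higher and 1 lower (4.29% of all genes called, 2.10% higher and 2.20% lower), 1 in host blood (1.16%, 0.744% higher) and 1 in host spleen (0.562%, 0.446% higher). The other calls in wt blood were Fcgrt, at 273 and 141 RPM in Ly6Cint against 59.0 and 58.6 RPM in Ly6C+ libraries (1.72 ± 0.30, adjusted p = 0.00357), and Fcgr2b, at 48.7 and 71.9 against 140.2 and 119 RPM (-1.11 ± 0.29, adjusted p = 0.0390). The Fcgr2b call was lost without Ly6C+ replicate 1 or 2 or Ly6Cint replicate 1 (-1.23 to -0.84, adjusted p up to 0.313), and Fcgr3, not called at -0.60 ± 0.20, was called without Ly6Cint replicate 2 (-0.96, adjusted p = 0.00700).

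For Ly6C- against Ly6Cint cells of wt blood and the hosts, Fcgr4 was called in host spleen only (1.76 ± 0.33, adjusted p = 0.0222; 0.215% of all genes called, 0.0661% higher), and that call was lost without Ly6Cint replicate 1 or 2 or Ly6C- replicate 1 (1.44 to 1.76, adjusted p up to 0.605). The estimates were similar in wt blood (3.00-fold, 1.62 ± 0.39, adjusted p = 0.110) and host blood (2.83-fold, 1.53 ± 0.33, adjusted p = 0.0870). There limma called none of the 6 genes, with 0.448% and 0.107% of all genes called. An unadjusted p under 0.05 was reached by 2 of the 6 in each. In wt blood edgeR and DESeq2 each called 1 of the 6 (107 of 11388 and 157 of 10063 genes over all).

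Relative levels were compared per kilobase of transcript, since the transcripts run from 674 nt for Fcer1g to 3544 nt for Fcgr2b. This assumes that reads spread over the whole length of the transcript, which was not tested. Per kilobase Fcer1g was the highest of the 6 in every group of all tables. It had 194 RPM per kb in 7-week MDP and 2715 RPM per kb in 7-week blood Ly6C- monocytes. Fcgr3 came next in blood Ly6C+ monocytes, at 466 RPM per kb. In blood Ly6C- monocytes Fcgr4 came next, at 459.6 RPM per kb with Fcgr3 at 294, and the order was the same in marrow Ly6C- monocytes (397 and 271), wt Ly6C- monocytes (691 and 435) and the Ly6C- monocytes of host blood (649.9 and 418) and host spleen (391 and 288). The spleen grafts at 48 h also had Fcgr4 above Fcgr3, at 588 and 509.6 per kb. Before division by length, Fcgr3 was above Fcer1g in 7-week cMoP, at 389 ± 11.7 against 242 ± 25.3 RPM (SD, n = 4).

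The ratio of Fcgr4 to Fcgr2b, an activating over an inhibitory receptor, shows the same course within each library, free of the scaling of the table. Per kilobase it was 0.101 to 0.288 in 7-week MDP, 0.143 to 0.388 in cMoP, 0.160 to 0.518 in marrow Ly6C+ and 0.742 to 1.27 in blood Ly6C+ monocytes. It was then 6.38 to 9.49 in blood Ly6Cint, 12.6 to 24.3 in blood Ly6C- and 11.7 to 16.5 in marrow Ly6C- monocytes. In this table RNA of the inhibitory receptor thus exceeded that of Fcgr4 in progenitors and marrow Ly6C+ cells, and Fcgr4 RNA exceeded it in every Ly6Cint and Ly6C- library. In the 8-week libraries the ratio was 0.418 to 1.27 in MDP, 0.395 to 0.465 in cMoP and 0.274 to 0.508 in marrow Ly6C+ cells. Per kilobase Fcgr4 was thus the higher in 8-week MDP replicate 1. Before division by length, that library had 11.2 RPM of Fcgr4 (27 reads) and 24.8 RPM of Fcgr2b (60 reads).

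**Figure D3:**
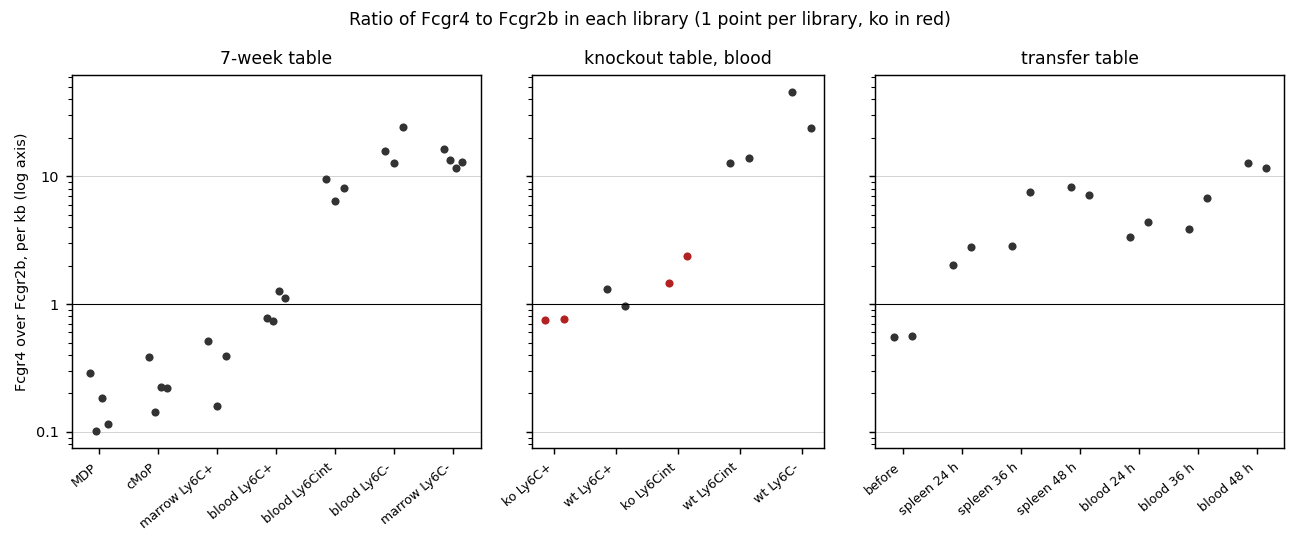
Ratio of Fcgr4 to Fcgr2b per kilobase of transcript on a log axis, with 1 point per library: the 7-week table, the blood libraries of the knockout table (ko in red), and the cells before transfer and the grafts of the transfer table. The ko Ly6Cint libraries lie at 1.45 to 2.37, below the wt Ly6Cint libraries at 12.8 to 14.0.

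In the ko mice the targeted gene was checked first. Cebpb lay between 57.2 and 115 RPM in ko Ly6C+ libraries, against 693 to 804 RPM in wt Ly6C+ libraries (-3.19 ± 0.38, adjusted p = 0.000551). It lay between 67.1 and 186 RPM in ko Ly6Cint libraries, against 1242 to 1734 RPM in wt Ly6Cint libraries (-3.70 ± 0.38, adjusted p = 4.82e-05). The labels and the gene therefore go together, with RNA of the locus left in all ko libraries. The exon that the allele removes is not given in the sources used here.

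In ko Ly6Cint monocytes the inhibitory receptor was higher and Fcgr4 lower. Fcgr2b had 181 and 128 RPM in ko Ly6Cint libraries against 48.7 and 71.9 RPM in wt Ly6Cint libraries, 2.56-fold higher (1.35 ± 0.29, adjusted p = 0.00986). Fcgr4 had 93.2 and 108 RPM in ko against 221 and 357 RPM in wt libraries, at 0.347 of the wt level (-1.48 ± 0.39, adjusted p = 0.0356). These 2 of the 6 genes were called, 1 in each direction, with 6.33% of all genes called, 3.63% higher and 2.70% lower. Both calls were lost under some other settings, that of Fcgr2b with the compared libraries alone. The Fcgr4 call was lost with no filter, quantile scaling or array weights. Both were also lost when certain single libraries were left out, though the estimates kept their sign in all cases. Fcgr2b lost its call without wt replicate 1 or ko replicate 2 (1.07 to 1.10, adjusted p up to 0.146), and Fcgr4 without wt replicate 2 or ko replicate 1 or 2 (-1.58 to -1.14, adjusted p up to 0.225).

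Of the other 4 genes, Fcgr1 had 147 and 127 RPM in ko Ly6Cint against 63.2 and 69.6 RPM in wt Ly6Cint libraries, which is 2.07-fold (1.03 ± 0.30, adjusted p = 0.0572), and was not called by limma. Fcgrt had 105 and 111 RPM in ko against 273 and 141 RPM in wt libraries (-0.86 ± 0.30, adjusted p = 0.122), and was called without wt replicate 2 (-1.33, adjusted p = 0.0203). edgeR and DESeq2 each called 4 of the 6 genes, Fcgr1 and Fcgrt included. Over all genes they called 913 of 11388 and 848 of 10504. Fcgr3 gave -0.28 with a 95% interval of -0.71 to 0.15 and Fcer1g -0.42 with an interval of -0.95 to 0.11.

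In ko Ly6C+ monocytes limma called none of the 6 genes (1.26% of all genes called). At an unadjusted p under 0.05 there were 2, Fcgr1 and Fcgr3, and edgeR and DESeq2 each called 1 (132 of 11388 and 163 of 10504 genes over all). Fcgr1 had 267 and 227 RPM in ko against 116 and 113 RPM in wt Ly6C+ libraries, 2.16-fold (1.10 ± 0.30, adjusted p = 0.109), close to its ratio in Ly6Cint cells. Fcgr3 had 679 and 669 RPM in ko against 917 and 904 RPM in wt libraries (-0.43 ± 0.20, adjusted p = 0.517). Fcgr4 was 46.1 and 47.0 RPM in ko against 65.1 and 40.8 RPM in wt libraries (-0.14, 95% interval -0.98 to 0.69), so at this precision no difference was detectable for it in Ly6C+ cells.

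Whether the genotype acted differently in Ly6Cint and in Ly6C+ cells was tested as an interaction, which limma called for none of the 6 genes and for 0.00878% of all genes. Unadjusted p-values were under 0.05 for 3 of the 6, a threshold for which no share of all genes is given. Of the 6, edgeR and DESeq2 called 0 (2 of 11388 and 39 of 6310 genes over all). The estimates were -1.34 ± 0.56 for Fcgr4, 0.94 ± 0.40 for Fcgr2b and -1.32 ± 0.43 for Fcgrt (adjusted p = 0.805, 0.811 and 0.523). Seen within the ko mice, Ly6Cint against Ly6C+ cells gave no call by limma (1.64% of all genes called). An unadjusted p under 0.05 was reached by 3 of the 6 genes. Of the 6, edgeR called 0 (185 of 11388 genes over all) and DESeq2 2 (237 of 8959). Fcgr4 was 2.16-fold higher in ko Ly6Cint than in ko Ly6C+ cells (1.09 ± 0.39, adjusted p = 0.218), beside 5.47-fold in wt mice. The ratio of Fcgr4 to Fcgr2b per kilobase was 0.753 to 0.770 in ko Ly6C+ and 1.45 to 2.37 in ko Ly6Cint libraries. It was 0.965 to 1.31 in wt Ly6C+, 12.8 to 14.0 in wt Ly6Cint and 23.7 to 46.1 in wt Ly6C- libraries. Before division by length, Fcgr4 was below Fcgr2b in the ko Ly6Cint libraries, at 93.2 and 108 against 181 and 128 RPM.

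Marker sums moved with genotype. Dendritic cell markers, led by H2-Aa, summed to 21127 to 23144 RPM in ko Ly6Cint libraries against 4907 to 5549.6 RPM in wt Ly6Cint libraries (1 of 6 tested genes higher; none at 0 in ko, Ccr7 at 0 in wt), and to 6033 to 8119 RPM in ko against 919 to 1032 RPM in wt Ly6C+ libraries (0 of 6 called by limma; Xcr1 and Ccr7 at 0 in both, Zbtb46 and Siglech also at 0 in ko). Tissue macrophage markers summed to 484 to 823 RPM in ko Ly6Cint against 163 to 167 RPM in wt Ly6Cint libraries (4 of 8 higher; Vcam1, Timd4 and Cd5l at 0 in both), and to 306 to 357 RPM in ko against 148 to 203 RPM in wt Ly6C+ libraries (2 of 8 higher). B cell markers, whose cells carry Fcgr2b as their IgG receptor, summed to 35.9 to 46.2 RPM in ko Ly6Cint and 19.3 to 20.8 RPM in wt Ly6Cint libraries, with 1 of 5 tested genes higher and Ms4a1, Pax5, Blk and Vpreb3 among those at 0 in both groups. Monocyte markers summed to 3092 to 3627 RPM in ko Ly6Cint against 6201 to 6888 RPM in wt Ly6Cint libraries (4 of 8 lower). The part of these cells in the values of the 6 genes was not tested.

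**Figure D4:**
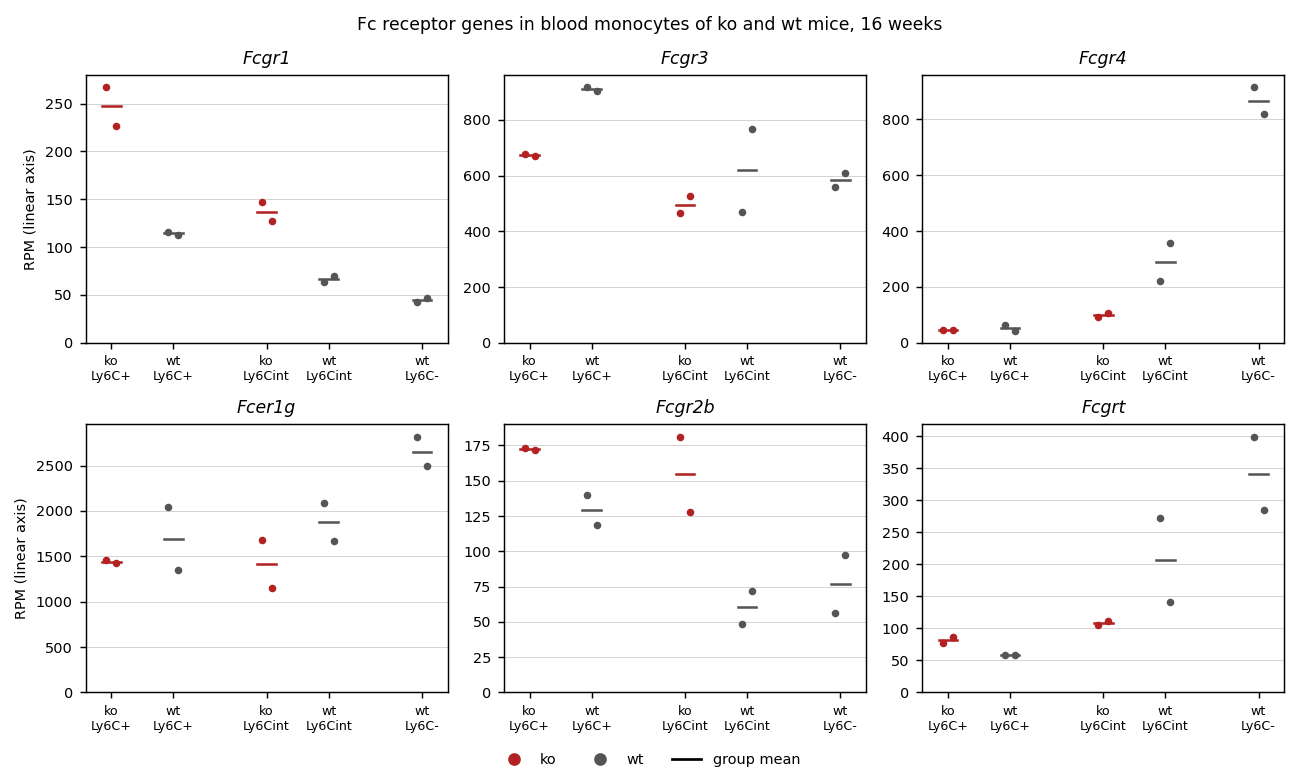
Level of each gene in the blood libraries of the knockout table, in RPM on a linear axis from 0, with ko left of wt and 1 point per library. In Ly6Cint cells both ko libraries lie above both wt libraries for Fcgr2b (181 and 128 against 48.7 and 71.9) and below them for Fcgr4 (93.2 and 108 against 221 and 357).

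After transfer of marrow Ly6C+ monocytes, Fcgr4 was the 1 gene of the 6 called at 24 h in either tissue. The grafts had 199 and 267 in blood and 172 and 266 in spleen at 24 h, against 41.2 and 39.9 before transfer. That is 5.76-fold higher in blood (2.48 ± 0.33, adjusted p = 2.33e-05) and 5.41-fold higher in spleen (2.37 ± 0.33, adjusted p = 5.82e-05), which share the libraries before transfer. All genes had a median of -0.53 in the blood and -0.21 in the spleen comparison, with 13.3% and 5.80% of genes called (2.98% and 2.89% higher). The other 5 genes were not called in either tissue, with log2 ratios of -0.27 to 0.37 in blood and -0.55 to 0.60 in spleen. Tissue of recovery, time in the host and preparation all changed together in this comparison and cannot be told apart.

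Fcgr4 was higher again at 48 h. Blood grafts had 287 and 482 at 36 h and 589 and 644 at 48 h, and spleen grafts had 210.0 and 385 at 36 h and 743 and 733 at 48 h. At 48 h the level against 24 h was 2.64-fold in blood (1.41 ± 0.33, adjusted p = 0.0102) and 3.36-fold in spleen (1.78 ± 0.33, adjusted p = 0.00622). The calls were 2 of 6 in blood, 1 in each direction (8.09% of all genes called, 4.42% higher and 3.67% lower), and 1 in spleen (2.41%, 0.314% higher). In blood the Fcgr4 call was lost without 24 h replicate 1 (1.20, adjusted p = 0.0565). The per-kilobase ratio of Fcgr4 to Fcgr2b was 0.548 to 0.566 before transfer. It was 3.32 to 4.42, 3.87 to 6.73 and 11.6 to 12.7 in blood grafts at 24, 36 and 48 h, and 2.03 to 2.80, 2.85 to 7.58 and 7.18 to 8.29 in spleen grafts. Before division by length, Fcgr4 was below Fcgr2b in spleen grafts at 24 h, at 172 and 266 against 239.7 and 269.

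The second call in blood, of Fcgr1, came from 1 library. Fcgr1 had 224 and 249 before transfer, 224 and 332 in blood at 24 h, 177 and 201 at 36 h, and 187 and 28.5 at 48 h. The fall from 24 to 48 h was -1.88 ± 0.51 (adjusted p = 0.0263), but -0.54 without 48 h replicate 2, and the call was also lost without 24 h replicate 2 (-1.59, the adjusted p of both cases lying between 0.118 and 0.450). In spleen it had 196 and 131 at 24 h, 124 and 147 at 36 h and 98.2 and 71.9 at 48 h, which was not called (-0.93, 95% interval -1.99 to 0.14).

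At 48 h the grafts stood near the hosts' own Ly6C- monocytes in Fcgr4. Blood grafts had 589 and 644 against 765 and 867 in host blood Ly6C- cells (-0.40, 95% interval -1.09 to 0.28), and spleen grafts 743 and 733 against 599 and 385 in host spleen Ly6C- cells (0.62, interval -0.06 to 1.30). The hosts were sampled at 24 h. In blood limma called none of the 6 genes, with 1 at an unadjusted p under 0.05 and 3.72% of all genes called, and Fcgr1 was called as higher without graft replicate 2 (1.53, adjusted p = 0.0237). In spleen 1 was called, with 5.44% of all genes called (1.01% higher): Fcgr3 had 617 and 756 in grafts against 357 and 419 in host Ly6C- cells (0.82 ± 0.19, adjusted p = 0.0173), lost without either host replicate, 1 or 2, or graft replicate 3 (0.67 to 0.93, adjusted p up to 0.183). Fcgr2b, at 253 and 288 against 113 and 195, was not called (0.85 ± 0.25, adjusted p = 0.0513) but was without host replicate 2 (1.24, adjusted p = 0.0430). The medians of all genes were -0.31 and -0.46.

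Between spleen and blood grafts limma called 1 gene at 1 time. Fcgr2b averaged 270.4 ± 24.8 in spleen and 144 ± 18.3 in blood grafts at 48 h (SD, n = 2 each), 1.88-fold higher (0.91 ± 0.25, adjusted p = 0.0454), with 4.37% of all genes called and 2.28% higher. That call was lost without any 1 of the 4 libraries, blood replicates 1 and 2 and spleen replicates 2 and 3 (0.78 to 1.04, adjusted p up to 0.122), while Fcgr1, not called (log2 ratio 0.19), was called as higher in spleen without blood replicate 1 (1.53, adjusted p = 0.0115). At 24 and 36 h limma called none (4.59% and 1.10% of all genes called), with 1 gene each at an unadjusted p under 0.05. Between spleen and blood of the hosts, limma called none of the 6 genes in Ly6C+, Ly6Cint or Ly6C- monocytes. Of all genes, it called 0.0909%, 0.165% and 0.190%. At an unadjusted p under 0.05, for which no share of all genes is given, there were 2, 3 and 4 of the 6. Fcgr4 lay at 0.460, 0.489 and 0.602 of the blood level in host spleen Ly6C+, Ly6Cint and Ly6C- cells, and its adjusted p was 0.764, 0.480 and 0.882.

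B cell markers summed to 308 to 512 in spleen grafts at 24 h against 38.1 to 40.8 before transfer (7 of 9 tested genes higher; none at 0 in the grafts, Cd79a, Pax5, Ebf1, Blk and Vpreb3 at 0 before). At 48 h they summed to 123 to 169 in spleen and 39.9 to 159 in blood grafts, with 0 of 9 called, and Pax5, Ebf1 and Blk were among those at 0 in both. Tissue macrophage markers summed to 311 to 972 in spleen grafts at 24 h against 235 to 299 before transfer (4 of 10 higher, Timd4 at 0 in both), and to 127 to 232 in blood grafts at 24 h (0 of 10 called by limma). B cell markers summed to 81.1 to 188 in blood grafts at 24 h (0 of 9 called). In spleen grafts at 36 h B cell markers summed to 349 to 893, tissue macrophage markers to 1223 to 3746 and NK cell markers to 78.5 to 238, with none of these genes at 0 in both libraries. The sums in blood grafts at 36 h were 53.9 to 82.4, 311 to 316 and 15.3 to 25.4. Tissue macrophage markers summed to 255 to 340.0 in spleen and 293 to 396 in blood grafts at 48 h. Dendritic cell markers summed to 1478 to 1703 in spleen grafts and 1001 to 2207 in blood grafts at 24 h, against 278 to 301 before transfer, led by H2-Aa. The part of the other cells was not tested.

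**Figure D5:**
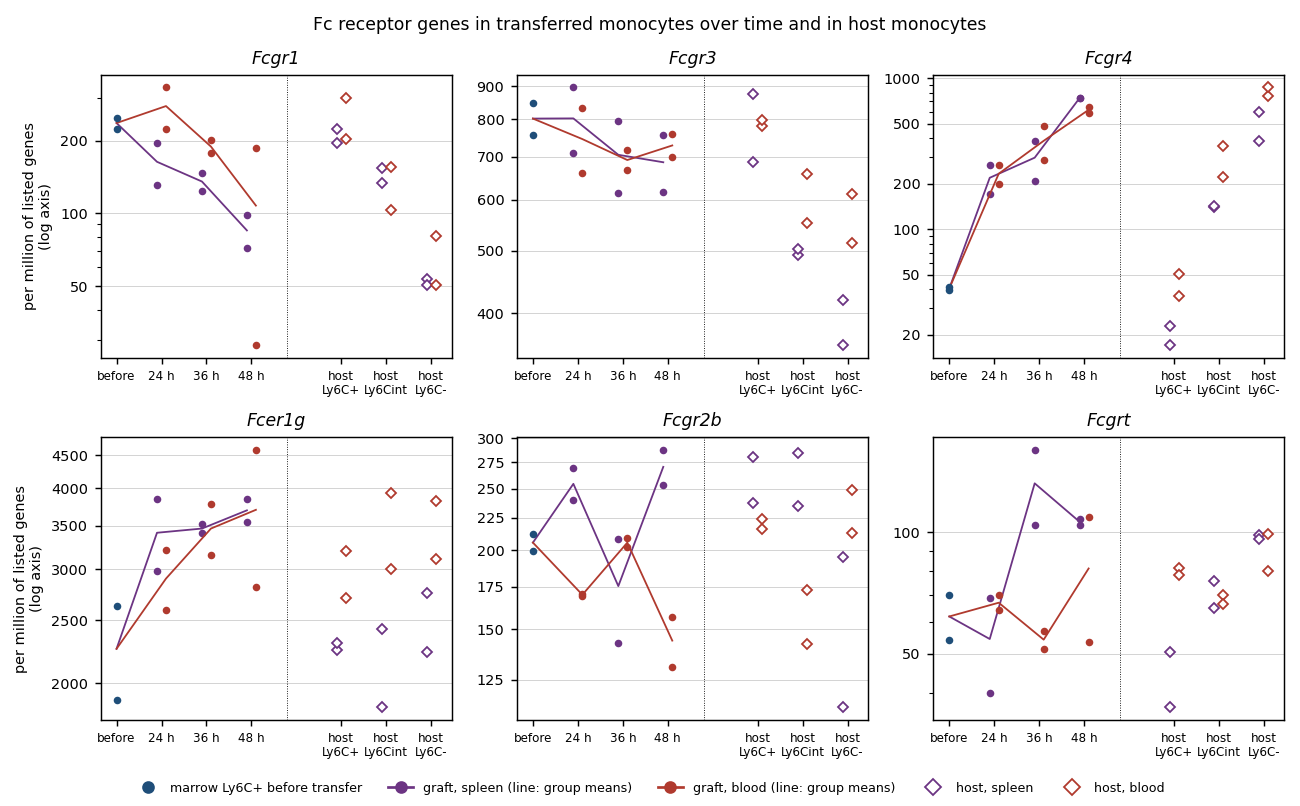
Level of each gene in the transfer table, scaled to 1000000 over the listed genes, on a log axis: marrow Ly6C+ cells before transfer and grafts from spleen and blood at 24, 36 and 48 h, with lines through the group means, and host monocytes as diamonds. Fcgr4 lies at 41.2 and 39.9 before transfer and at 48 h at 589 and 644 in blood and 743 and 733 in spleen.

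Other genes of the pathway were counted from lists chosen with earlier results of these data known. The shares of all genes called as higher were 15.3% in marrow Ly6C+ cells against cMoP, 9.86% in blood Ly6C- against Ly6C+ cells, 3.63% in ko against wt Ly6Cint cells, and 2.98% and 2.89% in the 24 h grafts of blood and spleen. Src family kinases, which phosphorylate the ITAM of Fcer1g, were higher in marrow Ly6C+ monocytes than in cMoP for 4 of 4 tested genes (median 2.77, all genes -0.17), led by Fgr (206 ± 19.0 against 3.43 ± 1.47 RPM, 5.60 ± 0.25). In blood Ly6C- against Ly6C+ monocytes 2 of 4 were higher (median 0.50, all genes 0.00), Fyn at 140.0 ± 22.6 against 19.1 ± 4.82 RPM (2.83 ± 0.25) and Fgr (0.77 ± 0.25). Fyn rose again in the 24 h grafts, to 206 ± 49.9 in blood and 181 ± 13.6 in spleen against 27.4 ± 2.79 before transfer, where 3 of 4 kinases were higher in each tissue (medians 1.23 and 1.12, all genes -0.53 and -0.21).

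Of Syk and its adaptors, 3 of 10 were higher in marrow Ly6C+ cells than in cMoP (median 0.43; 15.3% of all genes higher), namely Syk (163 ± 13.7 against 67.7 ± 4.18 RPM, 1.26 ± 0.19), the scaffold Lcp2 (1.08 ± 0.19) and Gab2 (0.62 ± 0.21). In blood Ly6C- against Ly6C+ cells 3 of 10 were higher (median 0.24; 9.86% of all genes), led by the ubiquitin ligase Cblb (49.6 ± 7.31 against 14.9 ± 5.50 RPM, 1.75 ± 0.29), which is known to restrain Syk signalling. In ko Ly6Cint cells 2 of 9 were higher than in wt (median -0.02, all genes 0.07; 3.63% of all genes), Lat2 (181 ± 7.52 against 90.1 ± 4.88 RPM, 1.00 ± 0.21, adjusted p = 0.00869) and Blnk at few reads (3.26 ± 0.435 against 0.146 ± 0.207 RPM). In the grafts at 24 h 0 of 10 were called by limma in blood, and Lat alone, a T cell adaptor, in spleen (35.5 ± 18.0 against 0.219 ± 0.310).

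The inhibitors of ITAM signalling were higher in marrow Ly6C+ cells than in cMoP for 8 of 12 tested genes (median 0.90; 15.3% of all genes higher), led by the inhibitory receptor Pirb (484 ± 31.8 against 11.7 ± 1.44 RPM, 5.26 ± 0.19) and the phosphatase Ptprc (2.11 ± 0.21), which also activates Src kinases. In blood Ly6C- against Ly6C+ cells 5 were higher and 1 lower (median 0.27; 9.86% of all genes higher and 10.5% lower): Pag1, which anchors the kinase Csk, was higher (70.4 ± 16.6 against 19.0 ± 9.15 RPM, 1.92 ± 0.29) and Pirb lower (424 ± 79.2 against 871 ± 214 RPM, -1.02 ± 0.19). In the ko mice the adaptor Dok2 was higher in both populations, at 164 ± 61.1 RPM in ko Ly6Cint against 8.36 ± 0.592 RPM in wt Ly6Cint cells (4.09 ± 0.50, adjusted p = 0.000232) and 72.2 ± 32.0 RPM in ko Ly6C+ against 12.0 ± 7.58 RPM in wt Ly6C+ cells (2.56 ± 0.50, adjusted p = 0.0231). Its relative Dok3 was lower in ko Ly6Cint cells (404 ± 37.9 against 935 ± 249 RPM, -1.19 ± 0.18, adjusted p = 0.00130), as was Pag1 (-1.82 ± 0.51, adjusted p = 0.0456), so 1 of 12 was higher and 2 lower there (3.63% and 2.70% of all genes). In ko Ly6C+ cells Dok2 was the 1 of 12 called (1.26% of all genes called). In the grafts at 24 h 5 were higher and 1 lower in blood, and 3 higher in spleen, Ptprc, Cd300a and Csk in each (2.98% and 2.89% of all genes higher).

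In marrow Ly6C+ cells against cMoP, lipid and calcium signalling had 5 of 9 higher and 1 lower (median 0.63; 37.7% of all genes called, 15.3% higher), with Plcg2 (1.30 ± 0.16) and the kinase Prkcd (1.17 ± 0.15), and the actin list had 7 of 11 higher (median 0.57), with the myosin Myo1f (1.27 ± 0.16) and Coro1a (0.89 ± 0.19). In blood Ly6C- against Ly6C+ cells the lipid list had 1 higher and 1 lower of 9 and the actin list 1 higher of 11, with 20.3% of all genes called. In ko against wt Ly6Cint cells limma called 0 of 9 lipid genes and 1 of 11 actin genes (6.33% of all genes), Dock2 (-0.74 ± 0.20, adjusted p = 0.0382).

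Of other receptors and adaptors with the ITAM route, 2 of 5 were higher in marrow Ly6C+ cells than in cMoP (15.3% of all genes higher), the adaptor Tyrobp (2546 ± 256 against 844 ± 97.5 RPM, 1.59 ± 0.15) and Clec4e, a lectin that signals through Fcer1g (1.28 ± 0.36). Clec4e was also the 1 of 5 higher in blood Ly6C- cells (9.86% of all genes; 59.9 ± 21.8 against 26.8 ± 4.01 RPM, 1.08 ± 0.36). Hcst, an adaptor without an ITAM, was lower in ko Ly6Cint cells (45.5 ± 1.29 against 105 ± 20.6 RPM, -1.18 ± 0.22, adjusted p = 0.00414), 1 of 5 where 2.70% of all genes were lower. Of the other Ig-binding proteins, B2m, the partner of Fcgrt, was higher in blood Ly6C- than in blood Ly6C+ cells (5741 ± 1791 against 3421 ± 924 RPM, 0.74 ± 0.21, adjusted p = 0.0121) and in marrow Ly6C- than in marrow Ly6C+ cells (5335 ± 885 against 1801 ± 541 RPM, 1.60 ± 0.21). Of 5 tested genes in this list 2 were higher in each of these (9.86% and 11.04% of all genes higher) and 1, Lgals3, was lower (1043 ± 157 against 2929.7 ± 549 RPM in blood, -1.48 ± 0.19). In ko against wt Ly6Cint cells limma called 0 of 6 (6.33% of all genes).

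The genes most like each of the 6 over the 25 libraries of the 7-week table were ranked by Pearson's r on log2 values among 7148 genes with a group mean of at least 20 RPM, as a description, since libraries of a group share their cell type. Fcgr4 was closest to Pglyrp1 (0.990), Hfe (0.986) and Pparg (0.985), and these values stayed high over the 26 libraries of the transfer table (0.942, 0.895 and 0.884). Fcgr1 was closest to Pirb (0.983), Psap (0.983) and Trex1 (0.982), with 0.267, 0.633 and 0.560 in the transfer table. Fcgr2b was closest to Zfand3 (0.941), Cebpb (0.936) and Adipor1 (0.932), but these had negative values in the transfer table, -0.386, -0.308 and -0.143. For Fcgr3 the closest were Igsf6, Tlr1 and Naip2 (0.950, 0.938 and 0.933), for Fcer1g Ctsb, Tnfrsf1b and Msn (0.983, 0.978 and 0.977), and for Fcgrt Tcea3, Agpat4 and Stk10 (0.979, 0.977 and 0.971). Among the 6 genes, Fcgr1 and Fcgr4 had an r of 0.68 in the 7-week table, which includes progenitors low in both, and -0.64 in the transfer table, which has none. Fcgr4 and Fcgrt had 0.93 and 0.51.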

How the data were processed

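RNA was taken on oligo-dT beads from sorted cells, per the labels' protocols. bcl2fastq, HISAT 0.1.5, SAMtools, HOMER and mm9 are named in the submitters' processing notes; counting options, including strand, are not given in the sources used here. A signal per gene was deposited for the 7-week and knockout tables, scaled to what was taken here as 10000000 reads per library. Dividing by the value of 1 read gave whole reads within 0.1 for 291882 of 291882 and 187209 of 187210 values above 0. For the transfer table the authors deposited rounded values, treated here as a score, which were divided to sum to 1000000 per library. Its depth is unknown. All columns were used (0 left over).

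Values were tested with limma 3.58.1 (trend, R 4.3.3, two-sided) on log2 of the value plus 1, with 1 mean per group and each table fitted alone. Genes needed a value of 2 in at least 3 libraries (7-week table) or 2 libraries, which left 11373, 11388 and 12096 genes in the 7-week, knockout and transfer tables. Fold changes compare group means, whereas log2 ratios carry the added 1, so they understate the change of low genes. edgeR 4.0.16 and DESeq2 1.42.0 were run on the recovered reads. The other alternatives were a pseudocount of 0.5, no filter, quantile scaling, array weights, the compared libraries alone, a replicate block and leaving out each library. The limma fit was also run on simulated counts, drawn from the means of the reference group with a fixed spread. That setting is simpler than these data and its outcome is not given here, so no result rests on it.

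The 6 genes, and the 15 lists of pathway genes and cell markers, were chosen with earlier results of these data known. Not all 6 genes are named in every comparison that is described. Of a list, up to 3 called genes per comparison with the smallest adjusted p may be named, and for likeness the 3 genes with the highest r. Lilrb4 and Emr1 were not found by symbol. Some genes of the lists are not reported here.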

Additional observations from a re-analysis of the deposited data

Results flagged for a closer look

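In 7-week MDP, replicate 2 stood apart for Fcgr1, at 0.774 RPM (4 reads) beside 2.95, 3.14 and 2.97 RPM. Its gap to the nearest library was 0.922 of the range of the group. This was 1 of 24 checks of a gene in a group, and chance marks about 1 in 20.

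The log2 ratio of Ly6C- over Ly6C+ cells at 7 weeks differed between marrow and blood by limma's test of the interaction for 3 genes. The rise was larger in marrow for Fcgr4 (by 2.01, adjusted p = 0.000476) and Fcgrt (by 1.06, adjusted p = 0.0237). For Fcgr1 the ratio was less negative in marrow, -0.37 against -1.69 in blood (1.32, adjusted p = 0.0152).

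In 48 pairs of comparisons, each for a single gene, 4 had every library of one going the opposite way to the other. The groups in these 4 have 2 libraries each. The share of all genes with such a pattern was not counted, so the 4 cannot be set against chance. For Fcgrt the ko libraries lay below the wt libraries in Ly6Cint cells and above them in Ly6C+ cells, with an interaction of -1.32 (limma adjusted p = 0.523). For Fcgrt the log2 difference of Ly6Cint from Ly6C+ host cells was positive in spleen and negative in blood, 0.92 apart. For Fcgr2b that of host Ly6C- from Ly6Cint cells was negative in spleen and positive in blood (-1.35), and that of the 24 h graft from the cells before transfer was positive in spleen and negative in blood, 0.57 apart. The difference was not tested for these last 3 pairs.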

How the results depend on the processing

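Of 61 calls among 216 gene results, 36 held under every alternative run, and no called value changed sign. For lost calls, the results above mainly name the single libraries left out, and some of these calls were also lost under other settings. Counts of the 6 genes stayed within 1.5 times in 352 of 429 recomputations. With edgeR, counts became 1 for Ly6C- blood against marrow (0), 6 for the marrow against blood interaction (3), 1 for ko against wt Ly6C+ (0), 2 for 7-week Ly6Cint against Ly6C+ (4), 4 for ko against wt Ly6Cint (2) and 1 for wt Ly6C- against Ly6Cint (0). Over all genes edgeR called 245, 1440, 132, 1982, 913 and 107 in these, of 11373 tested in the 7-week and 11388 in the knockout table. DESeq2 gave 1, 6, 1, 4 and 1 for the same comparisons except 7-week Ly6Cint against Ly6C+, and 2 for ko Ly6Cint against Ly6C+ (0). Over all genes it called 354 of 11371, 1868 of 10709, 163 of 10504, 848 of 10504 and 157 of 10063 in these, and 237 of 8959 in the last. Quantile scaling gave 5 for the interaction, 2 for 7-week Ly6Cint against Ly6C+, 1 for ko against wt Ly6Cint, 4 for 8-week cMoP against MDP (2) and 5 for wt Ly6C- against Ly6C+ (3). Array weights gave 1 for ko against wt Ly6C+, 2 for 7-week Ly6Cint against Ly6C+, 1 for ko against wt Ly6Cint, 1 for 8-week cMoP against MDP and 6 for wt Ly6C- against Ly6C+, and the compared libraries alone gave the same 5 counts, plus 2 for ko Ly6Cint against Ly6C+.

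In the transfer table, array weights and the compared libraries alone each gave 0 for the 48 h against 24 h grafts of blood (2) and of spleen (1), 0 for 48 h spleen against blood grafts (1) and for spleen grafts against host Ly6C- cells (1), and 5 for host spleen Ly6C- against Ly6C+ (3). For host spleen Ly6C- against Ly6Cint (1) they gave 3 and 2. Array weights alone gave 1 for host Ly6C+ spleen against blood (0), 1 for host blood Ly6C- against Ly6Cint (0) and 2 for host spleen Ly6Cint against Ly6C+ (1), and the compared libraries alone 0 for host blood Ly6Cint against Ly6C+ (1). A pseudocount of 0.5 gave 1 for 8-week cMoP against MDP and 2 for spleen grafts against host Ly6C- cells, and no filter 1 for ko against wt Ly6Cint, for 8-week cMoP against MDP and for host blood Ly6C- against Ly6C+ (2). The cause was not tested.

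Leaving out 1 library gave 2 to 5 for the interaction, 1 to 4 for 7-week Ly6C- against Ly6Cint (3), 2 to 4 for 7-week Ly6Cint against Ly6C+, 0 to 2 for ko against wt Ly6Cint, 1 to 2 for 8-week cMoP against MDP, 2 to 4 for wt Ly6C- against Ly6C+, 1 to 2 for 48 h against 24 h blood grafts, 0 to 1 for blood grafts against host Ly6C- cells, 0 to 1 for 48 h spleen against blood grafts, 1 to 1 for host blood Ly6C- against Ly6C+, 1 to 3 for host spleen Ly6C- against Ly6C+, 0 to 1 for host spleen Ly6C- against Ly6Cint and 0 to 1 for spleen grafts against host Ly6C- cells. Where 1 library of a group of 2 remained, it was taken to vary like the other groups.

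Whether replicate numbers pair libraries was not settled by the deviations from group means. Titles of the transfer table carry letters, and A and AC were read here as 1, B as 2 and C as 3. AC and C thus counted as other numbers. In the 7-week table these correlated between -0.299 and 0.385 for the same number and between -0.366 and 0.255 for other numbers (medians -0.004 and -0.000). The ranges were -0.322 to 0.411 and -0.411 to 0.322 in the knockout table, and -0.035 to 0.077 and -0.077 to 0.041 in the transfer table. In a group of 2, as in all groups of the knockout and transfer tables, the deviations are exact opposites. The knockout ranges therefore mirror each other by construction, and the transfer ranges are bound in part in the same way. With a replicate block the count was 2 for 7-week Ly6C- against Ly6Cint (3) and 3 for marrow Ly6C- against Ly6C+ (4), and within 1.5 times of the main count in every comparison fitted. Over all genes, edgeR called 392 and DESeq2 625 for 7-week Ly6C- against Ly6Cint, where limma called 1009, and 913 and 848 for ko against wt Ly6Cint, where limma called 721. Depth limits Fcgr1 and Fcgr4 in progenitors, at 4 to 22 reads per 7-week library. Genes of the lists were not run under the alternatives.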
